A study of Mus musculus with 4 samples.

Results

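The liver makes cholesterol from acetyl-CoA through mevalonate, squalene and lanosterol, and makes fatty acids from the same precursor for storage as triglyceride. Both routes are under transcription factors of the SREBP family. SREBP2, from Srebf2, acts mainly on the sterol genes, and SREBP1, from Srebf1, acts mainly on the fatty acid and triglyceride genes. Scap carries both factors out of the endoplasmic reticulum when sterols are low, and the Insig proteins hold Scap back when sterols are high.

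The genes described here were set by symbol, as 45 symbols of cholesterol synthesis and lipogenesis that stand for 44 genes, because Sc4mol and Msmo1 are older and newer names of the sterol C4-methyl oxidase gene. Of these 44 genes, 31 have a row among the 7000 genes of the deposited table and 13 have none. The sterol arm holds 21 genes, with 15 listed, and the fatty acid and triglyceride arm holds 23 genes, with 16 listed. The rows follow the order of the p-values of the authors' own comparison, so a gene with no row was either not tested or came later in that order. Its absence says nothing of whether the liver expresses it.

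Livers came from male wild-type FVB/N mice that were fed, on a torula yeast base low in selenium, one of 2 diets from weaning for 6 weeks. The 0 Se mice (2 mice, replicates 1 and 2) received a diet with 0 ppm of added selenium, and the 0.1 Se mice (2 mice, replicates 4 and 5) the same kind of diet with 0.1 ppm of selenium added as sodium selenite. Total liver RNA was depleted of ribosomal RNA and sequenced. The values used are the authors' mean over the 4 libraries in CPM (reads of the gene per 1000000 counted reads), which mix both diets. With 0 columns for single mice, neither a diet difference nor the spread between mice nor the depth of each library was analysed here. Levels of different genes were compared per kilobase of the mRNA entry that reads were aligned to (CPM per kb). No order of genes given below could be tested against the spread between mice, and neighbouring genes in an order may not differ.

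The listed genes were mostly abundant liver mRNAs. Their median level was 58.5 CPM per kb, against 6.19 CPM per kb for all 7000 listed genes, a ratio of 9.45. Of the 31, 28 lay above the median of all listed genes, 26 above their 75th percentile (18.0 CPM per kb) and 16 above their 90th percentile (57.5 CPM per kb). The exceptions below the median were Srebf2, Pnpla3 and Scd2, the last of which was the only one at or below the 25th percentile (2.09 CPM per kb). Together the 31 mRNAs took 1.47% of the counted reads. These positions describe the listed rows and carry no test, since genes are not replicates and the rows are a selected part of the genes that were tested.

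**Figure D1:**
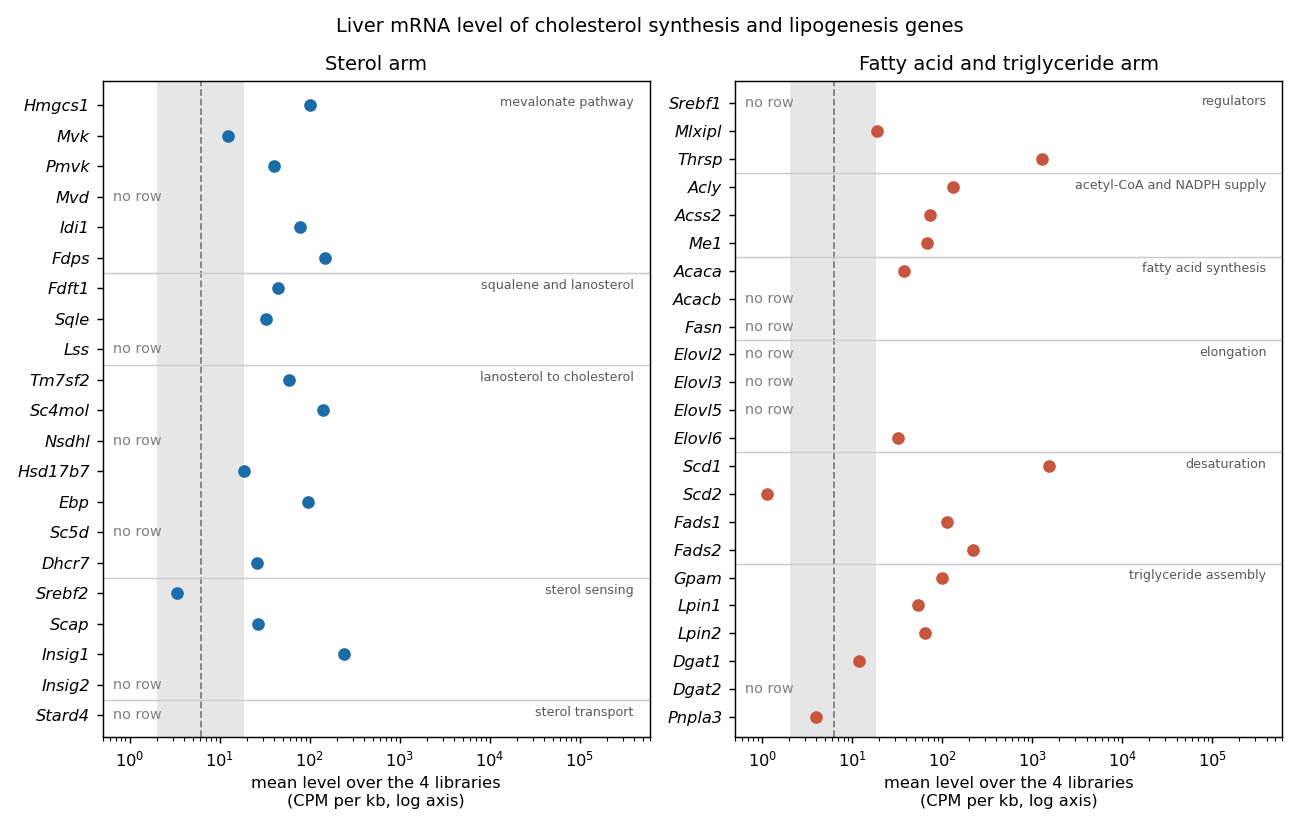
Mean liver mRNA level over the 4 libraries (x axis, CPM per kb, log scale) of each gene in pathway order for the sterol arm (left, blue) and the fatty acid and triglyceride arm (right, red), with 1 point per gene and no error bar because values of single mice were not analysed. The grey band runs from the 25th to the 75th percentile of all 7000 listed genes (2.09 to 18.0 CPM per kb), the dashed line is their median (6.19), and most points lie to the right of the band.

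In the sterol arm the median of the 15 listed genes was 45.0 CPM per kb, and the levels ran from 3.40 for Srebf2 to 239.6 for Insig1, a 70.4-fold range. The mevalonate enzymes, which build the isoprenoid units, were represented by 5 of 6 genes. Fdps, farnesyl diphosphate synthase, was the highest of them at 147.9 CPM per kb. Hmgcs1, which makes HMG-CoA, stood at 101.0 CPM per kb, and Idi1, isopentenyl diphosphate isomerase, at 77.8. The kinases that act between these steps were lower. Pmvk, phosphomevalonate kinase, was at 39.9 CPM per kb, and Mvk, mevalonate kinase, at 12.3, so Fdps exceeded Mvk 12.0-fold and Hmgcs1 exceeded it 8.20-fold. Mvd, the decarboxylase that follows Pmvk, has no row.

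The steps from farnesyl diphosphate to lanosterol had 2 of 3 genes listed, and both lay above the 75th percentile of all listed genes. Fdft1, squalene synthase, had 45.0 CPM per kb, and Sqle, squalene epoxidase, had 32.7 CPM per kb. Lss, lanosterol synthase, has no row. The Fdft1 value is uncertain because its gene overlaps a neighbour. Of the 50-base windows of its annotated transcript, 25.7% also aligned to Ctsb, and reads from such windows could not be counted as unique if both entries were in the authors' reference.

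Lanosterol is turned into cholesterol by demethylation, reduction and isomerisation, and 5 of the 7 genes of these steps were listed, all above the 75th percentile of listed genes. Sc4mol, the C4-methyl oxidase, was highest at 141.2 CPM per kb, followed by Ebp, the sterol isomerase, at 97.0. Tm7sf2, a sterol C14 reductase, was at 58.5 CPM per kb. Dhcr7, the 7-dehydrocholesterol reductase, was at 26.2 CPM per kb, and Hsd17b7, a 3-keto-sterol reductase, was lowest at 18.5. Nsdhl and Sc5d have no row. The 5 listed genes of this route spanned 7.65-fold in level.

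Within the sterol arm, the genes that sense sterols had the widest range of levels of the groups described. Insig1, itself a known SREBP target, was the highest gene of the sterol arm at 239.6 CPM per kb, in the 96.8th percentile of all listed genes. Scap was at 26.8 CPM per kb and Srebf2 at 3.40. Insig1 was 8.95-fold above Scap, and Scap was 7.87-fold above Srebf2. Srebf2 was the lowest listed gene of the sterol arm, in the 35.0th percentile. For Scap, 13.9% of the windows of the annotated transcript also aligned to an overlapping gene model, 5830462I19Rik. Insig2, and Stard4, which encodes a sterol transporter, have no row.

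In the fatty acid and triglyceride arm the median of the 16 listed genes was 66.3 CPM per kb, and the levels ran from 1.14 for Scd2 to 1532 for Scd1, a 1345-fold range. The arm took 1.22% of the counted reads, against 0.249% for the sterol arm, so its summed CPM was 4.88-fold higher. Scd1 alone made up 60.9% of the arm's summed CPM. The ratio of the arm medians was 1.47 per kilobase. Without length scaling, the scale of the summed CPM, the medians were 314.6 CPM and 114.8 CPM, a log2 difference of 1.45. Srebf1, the gene of SREBP1, has no row, nor has Fasn, the fatty acid synthase.

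**Figure D2:**
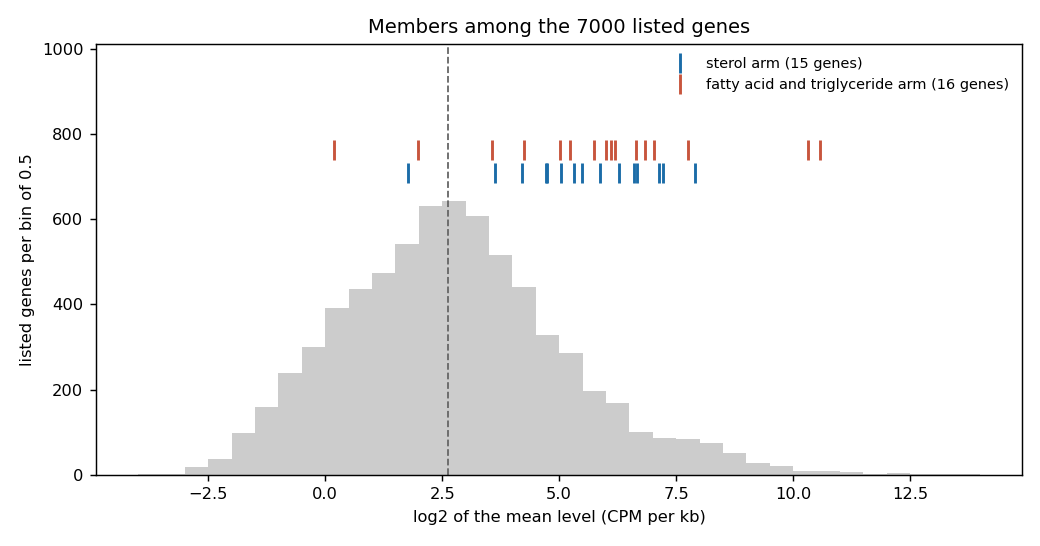
Histogram of the log2 mean level (x axis, CPM per kb) of all 7000 listed genes (grey, y axis, number of genes per bin), with 1 tick above it for each listed gene of the sterol arm (blue, 15) and of the fatty acid and triglyceride arm (red, 16). The dashed line is the median of all listed genes, and 28 of the 31 ticks lie to its right, with Scd1 and Thrsp apart at the far right.

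The regulators of lipogenesis were represented by Thrsp and Mlxipl. Thrsp, the Spot 14 gene that responds to thyroid hormone and carbohydrate, was the second highest of the 31 genes at 1276 CPM per kb, in the 99.5th percentile. Mlxipl, which encodes the glucose-responsive factor ChREBP, was at 19.0 CPM per kb, 67.0-fold below Thrsp. The 3 members that supply acetyl-CoA or NADPH were all listed and lay within a 1.90-fold range, and other enzymes of this supply were not examined. Acly, ATP citrate lyase, had 129.9 CPM per kb, Acss2, acetyl-CoA synthetase, had 72.7, and Me1, malic enzyme, had 68.5. All 3 were above the 90th percentile of the listed genes.

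Of the synthesis and elongation steps few genes were listed. Acaca, the acetyl-CoA carboxylase that forms malonyl-CoA for synthesis, was at 37.5 CPM per kb, 3.46-fold below Acly. It has the longest entry of the 31, at 9032 bases. Acacb, the mitochondrial carboxylase, has no row. Elovl6, which extends saturated fatty acids to stearate, was at 32.5 CPM per kb, and Elovl2, Elovl3 and Elovl5 have no row.

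All 4 desaturases were listed, and they held both extremes. Scd1, the stearoyl-CoA desaturase of liver, was at 1532 CPM per kb (7411 CPM), in the 99.6th percentile. Its paralog Scd2 was at 1.14 CPM per kb (6.21 CPM), in the 14.3rd percentile, so Scd1 was 1345-fold higher. The genes are neighbours on chromosome 19, on opposite strands and 87.6 kb apart (NCBIM37, the same assembly as mm9; Scd1 at chr19:44468941-44482199 and Scd2 at chr19:44368166-44381354). They have 6 exons each in the longest annotated transcript. Of the windows of Scd1, 12.0% aligned at more than 1 place, with Scd3 the most frequent other gene. Of those of Scd2, 9.23% did, with Scd1 the most frequent other gene. Reads of such windows are not unique and would be counted for neither gene, so both levels and their ratio are uncertain. Reads of either gene that were placed on the other were not examined, so these shares set no bound on the uncertainty.

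Fads2, the delta-6 desaturase, had 216.7 CPM per kb and Fads1, the delta-5 desaturase, had 113.4. These genes of polyunsaturated fatty acid synthesis also lie close together on chromosome 19, 81.4 kb apart. Fads2 was 1.91-fold above Fads1 per kilobase. Without length scaling the order was the other way, with 326.8 CPM for Fads2 and 392.0 CPM for Fads1, since the Fads2 entry has 1508 bases and that of Fads1 has 3458.

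Triglyceride assembly had 5 of 6 genes listed. Gpam, the mitochondrial acyltransferase of the initial step, was at 99.3 CPM per kb. Its listed entry has 3828 bases, whereas the longest annotated transcript has 6223, so the per-kilobase value depends on the entry chosen. Lpin2 was at 64.1 CPM per kb and Lpin1 at 53.8, and these phosphatidate phosphatases differed only 1.19-fold. Dgat1, which performs the final acylation, was at 11.9 CPM per kb, 8.35-fold below Gpam. Pnpla3, a lipid droplet protein, was lower still at 3.94 CPM per kb. Dgat2, the other enzyme of the final step, has no row.

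**Figure D3:**
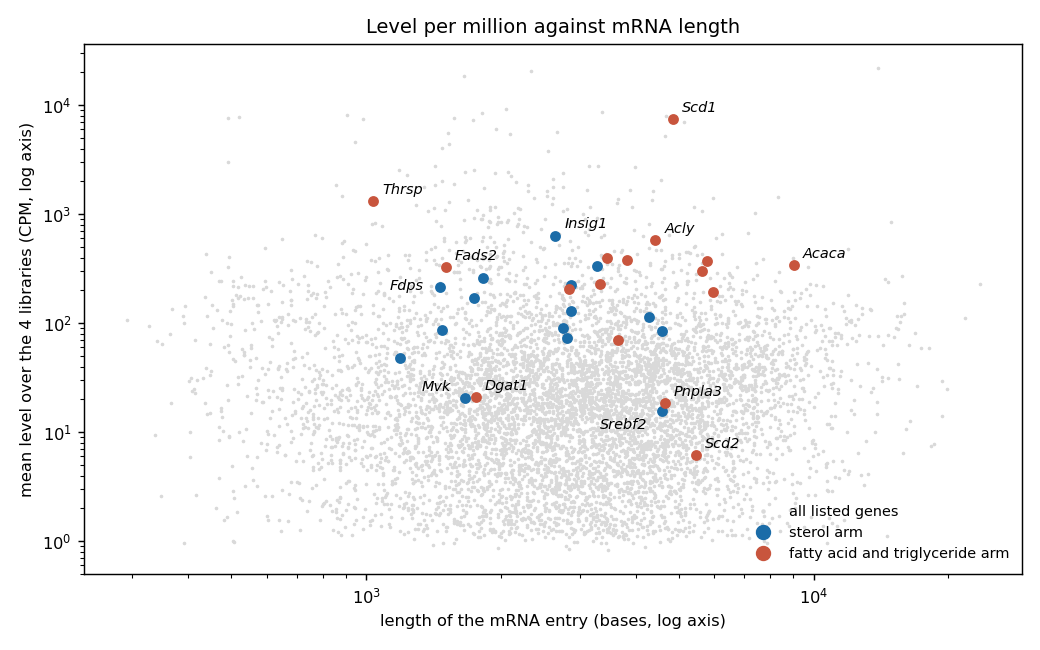
Mean level over the 4 libraries (y axis, CPM, log scale) against the length of the mRNA entry (x axis, bases, log scale) for all listed genes (grey), the sterol arm (blue) and the fatty acid and triglyceride arm (red). Scd1 (7411 CPM) and Thrsp (1324 CPM) stand above the other members, and Thrsp with 1038 bases has the shortest entry of them.

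The listed genes of the arms also differed in the medians of their mRNA structure, and no test was run. The median entry was 2748 bases in the 15 listed sterol genes and 4127.5 bases in the 16 listed fatty acid and triglyceride genes. That of all 7000 listed genes was 2959.5 bases. In the longest annotated transcripts (GENCODE vM1, 30 of 31 listed genes matched, Hmgcs1 unmatched) the median 3′ untranslated region had 623.5 bases in the sterol arm and 1958 bases in the other arm, against coding lengths of 1125 and 1578 bases. The median number of exons was 9 and 15.5. For 26 of the 30 genes the annotated length was within 10% of the listed one, the exceptions being Fdps, Sc4mol, Thrsp and Gpam. Of the 30, 23 had at least 99% of their 50-base windows aligning at no other place, compared with 74.8% of all 6770 listed genes matched by symbol.

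Of the 43 genes found in the annotation, 7 lie on chromosome 19 (Scd1, Scd2, Fads1, Fads2, Gpam, Elovl3 and Tm7sf2). Insig1 lies at chr5:28397952-28405201 on the plus strand, Thrsp at chr7:104561448-104566240 on the minus strand, and Srebf2 at chr15:81977696-82035806 on the plus strand, all on NCBIM37.

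SREBP factors bind sterol regulatory elements, often beside sites for NF-Y (a CCAAT box) and Sp1 (a GC box). RefSeq promoter sequences, from 250 bases before to 50 after each start, were available for 34 of the 44 genes, 17 in each arm. They were searched on both strands for 4 motifs, and a gene counted if any of its starts had the motif. The core of a sterol regulatory element was taken as TCACNCCAC. The NF-Y box was taken as CCAAT. The GC box was taken as GGGCGG. The E-box, a site of the kind that ChREBP binds, was taken as CACGTG. The NF-Y box was present in 16 of 17 sterol genes (94.1%) and 12 of 17 fatty acid and triglyceride genes (70.6%), and in 43.9% of the 5226 listed genes and 41.1% of all 27025 genes with an entry. The GC box was present in 16 of 17 sterol genes (94.1%) and 10 of 17 of the other arm (58.8%), against 67.6% of listed genes and 38.2% of all genes. Of the sterol genes, Scap had no CCAAT and Pmvk had no GGGCGG. With only 1 start per gene, the CCAAT shares were 88.2% and 52.9% in the arms and 39.9% in listed genes. The GC box shares were then 88.2% in the sterol arm, 41.2% in the other arm and 64.2% in listed genes. These are descriptions of letters in a window and no binding was measured.

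The E-box was present in 5 of 17 sterol genes and 3 of 17 genes of the other arm, against 11.6% of listed genes. With only 1 start per gene, its shares were 23.5% in the sterol arm, 11.8% in the other arm and 10.1% in listed genes. The sterol regulatory element core was found in Hmgcs1 and Mlxipl only, 2 of 34 genes (5.88%), against 1.59% of listed genes and 1.44% of all genes. Other forms of the element were not searched. Both matches, in capitals, start 137 and 136 bases before the gene start and lie on the strand of the gene. The Mlxipl stretch is at chr5:135582615-135582643 of NCBIM37, and that of Hmgcs1, which had no match on NCBIM37, is at chr13:119690204-119690232 of GRCm38.p6, the build of the RefSeq promoters.
Hmgcs1: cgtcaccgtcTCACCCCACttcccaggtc
Mlxipl: atcagtggttTCACACCACgctcactggt

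The 100 bases before the start, the first on record where a gene has several, are shown for some listed genes. The promoter had to match NCBIM37 exactly once, and the gene had to be in the annotation. The stretch also had to hold a CCAAT box and lie outside the annotated gene. Hmgcs1, at 101.0 CPM per kb, was left out because it had no match on NCBIM37. Of the genes that met these conditions, the 3 highest of the sterol arm and the only one of the other arm are given. CCAAT boxes and GC boxes, on either strand, are in capitals. The stretches lie on NCBIM37 at chrX:7770639-7770738 on the minus strand (Ebp), chr13:8884752-8884851 on the plus strand (Idi1), chr5:114894178-114894277 on the plus strand (Mvk) and chr15:83998146-83998245 on the plus strand (Pnpla3).
Ebp: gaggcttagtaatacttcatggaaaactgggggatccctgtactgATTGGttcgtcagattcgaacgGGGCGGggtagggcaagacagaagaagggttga
Idi1: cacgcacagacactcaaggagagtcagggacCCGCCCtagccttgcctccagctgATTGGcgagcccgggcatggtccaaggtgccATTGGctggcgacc
Mvk: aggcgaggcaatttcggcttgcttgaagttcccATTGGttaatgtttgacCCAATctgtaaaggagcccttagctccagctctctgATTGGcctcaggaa
Pnpla3: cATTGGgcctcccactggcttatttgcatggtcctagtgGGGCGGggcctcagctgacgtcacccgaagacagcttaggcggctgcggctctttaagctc

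Mvk, with 12.3 CPM per kb, has 3 CCAAT boxes in this stretch, at 67, 50 and 14 bases before its start, and no GC box. Idi1, with 77.8 CPM per kb, has 2 CCAAT boxes, at 45 and 14 bases, and 1 GC box at 69 bases. Ebp, with 97.0 CPM per kb, has 1 CCAAT box at 55 bases and 1 GC box at 33 bases. Pnpla3, with 3.94 CPM per kb, also has 1 of each, at 99 and 61 bases.

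**Figure D4:**
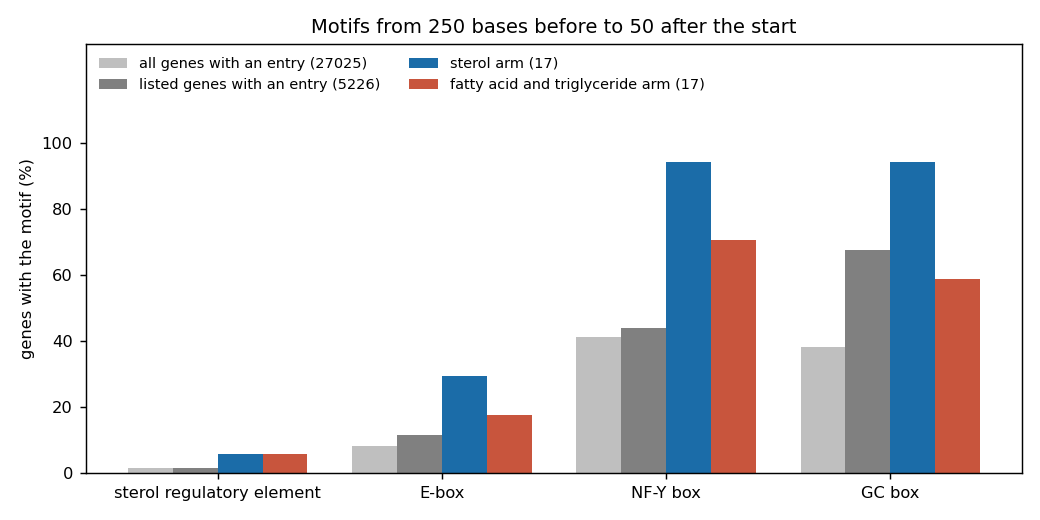
Percentage of genes (y axis) whose promoter sequence holds each motif (x axis), for all 27025 genes with an entry (light grey), the 5226 listed genes with one (dark grey), the sterol arm (blue, 17 genes) and the fatty acid and triglyceride arm (red, 17 genes). CCAAT (NF-Y box) reaches 94.1% in the sterol arm and 70.6% in the other arm, above both grey bars.

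Of 34 further genes of sterol and lipid metabolism, 23 were listed, with levels from 1.65 CPM per kb for Mogat1 to 15367 CPM per kb for Fabp1, the liver fatty acid binding protein, and 20 above the median of all listed genes. Cyp51, which demethylates lanosterol, was at 53.9 CPM per kb. Mbtps1, the protease that makes the initial cut in SREBP, was at 15.5 CPM per kb, and Mbtps2, which makes the next one, was at 1.97.

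Levels of cell type markers were set beside the tissue label, and a marker with no row says nothing of whether its cells were present. Of 9 hepatocyte markers, 5 were listed, between 335.9 and 7619 CPM per kb, all above the 90th percentile, while Alb, Ttr, Cps1 and Hnf4a have no row. Of 7 adipocyte markers, 3 were listed at 1.22 to 3.95 CPM per kb, and Adipoq, Plin1, Lep and Cfd have no row. Whether fat tissue added to the RNA cannot be told from these rows. All 5 Kupffer cell markers were listed (5.15 to 74.8 CPM per kb, Adgre1 under its older symbol Emr1), as were 3 of 4 endothelial markers (8.52 to 16.4), all 4 stellate cell markers (1.67 to 98.3) and 0 of 4 cholangiocyte markers. These cells add to the bulk RNA, and fewer cells of a type and less RNA per cell cannot be told apart in it.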

How the data were processed

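Liver total RNA of 4 mice, 2 per diet, was sequenced by the authors as 50-base single-end reads from stranded, rRNA-depleted libraries. Reads were aligned by the authors with Bowtie to RefSeq mRNAs (mm9), with 1 entry of the longest isoform per gene, and only reads with a unique position and at most 2 mismatches were kept. The authors used edgeR on genes above 1 CPM in at least 3 samples. The methods and labels name Bowtie and edgeR without a version. The deposited table gives, for 7000 genes, the mRNA length and the log2 mean CPM over the 4 libraries, both made by the authors and used as deposited. Its other columns hold the authors' comparison of the diets (log2 fold change, p-value and FDR). They were not used beyond a check that rows follow the p-value order.

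A diet test on counts had been planned and was not run, because the table has 0 columns for single samples. Levels are 2 to the power of the deposited log2 mean CPM, divided by the length in kilobases (1000 bases). A percentile is the share of listed genes at or below a level. No test was run. Windows of 50 bases of the longest GENCODE vM1 coding transcripts (every position for the members, every 20 bases for other genes) were aligned to 1 transcript per gene with bwa 0.7.19, up to 2 mismatches, on either strand. The authors' set of RefSeq mRNAs may differ from this set. Promoter positions on NCBIM37 came from exact matches of the RefSeq sequences, whose own build is GRCm38.p6. Functions were tested on simulated data. Python 3.11.15, numpy 2.4.6, pandas 2.3.3 and matplotlib 3.10.9 were used.

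Every listed member is named, and further pathway genes are given by count and range with a few examples chosen after their values were seen. Members, lists and motifs were chosen with earlier results of these data known. Some further pathway genes are not reported here.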

Additional observations from a re-analysis of the deposited data

How the results depend on the processing

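The fatty acid and triglyceride arm had the higher median in each of the settings in which the arm medians were recomputed. The difference between the arm medians was 0.56 on the log2 scale, 1.45 without length scaling, 0.55 with the length less the read length, 0.56 with a minimum of 5 CPM, 0.36 for enzymes only, 0.43 with only unique windows counted as length and 0.39 without Scd1 and Thrsp, the last 2 settings being added after the data were seen. A minimum of 5 CPM removed none of the 31 members, so it could not change the arm medians. The mean log2 levels of the arms differed by 0.33. In the same settings the median of the sterol arm, 45.0 CPM per kb, became 114.8 CPM without length scaling, 45.8 CPM per kb with the shorter length, 51.8 for enzymes only and 49.2 with unique windows. That of the other arm, 66.3 CPM per kb, became 314.6 CPM without length scaling, and 67.1 with the shorter length, 66.5 with unique windows and 58.9 CPM per kb without Scd1 and Thrsp. The count of members above the median of all listed genes was 28 of 31 in the main setting, without length scaling and with the shorter length. With a minimum of 5 CPM it was also 28 of 31, against a median of 9.13 CPM per kb over 5569 genes. Matching older symbols used the same rows, so its 28 of 31 was the main count by construction. The count was 24 of 26 for enzymes only and 27 of 30 with unique windows. A DESeq2 test of the diets and leaving out each mouse in turn were not run, because values of single mice were not analysed here. No paired analysis applied, because the diets were fed to different mice and no test was run. No interval is given, because the values used were means over all libraries. Depth per library is also unknown.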
